A study of Homo sapiens with 21 samples.

Results

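Voltage-gated sodium and calcium channel genes and potassium channel genes were examined in SK-N-BE(2), an established human neuroblastoma cell line, after transduction with short hairpin RNAs (shRNA) against ARID1A and ARID1B. The members were the protein-coding genes of the deposited expression table whose symbols begin with KCN and a further letter, with CACNA, CACNB or CACNG, or read SCN, a number and A or B. This rule found 137 genes among the 60728 gene identifiers of the table. Of these, 91 had a mean of 5 or more over the 21 libraries and entered the tests, and 46 did not. RNA-Seq was made 72 h after transduction in 7 conditions of 3 libraries. By label, these were a non-silencing Control, the single hairpins shARID1A.2, shARID1A.4, shARID1B.2 and shARID1B.3, and the paired hairpins shARID1A/B.2.3 and shARID1A/B.4.2. Lentiviral supernatant delivered the hairpins in every condition, Control included, and by label each condition stands for 1 hairpin or 1 pair of hairpins in a single cell line. The labels number the libraries of a condition without saying that they came from separate cultures, so p-values measure the spread between these libraries, which may be technical. ARID1A and ARID1B are alternative structural subunits of the BAF chromatin remodelling complex. Values are normalised read counts, that is, reads on a gene divided by 1 size factor per library, and are comparable between libraries for 1 gene. Differences are given as log2 fold changes of the value plus 1, which understates the change of low genes, with their standard error. A gene is said to have changed, risen or fallen at a limma p-value under 0.05 after Benjamini-Hochberg adjustment over the 18615 genes tested, and to have changed 2-fold when the log2 fold change was also 1 or more in size.

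Sodium and calcium channels are built around a large pore-forming alpha subunit that opens when the membrane is depolarised. Beta subunits of sodium channels and the alpha2delta, beta and gamma subunits of calcium channels set how many channels reach the membrane and how they gate. Potassium channels bring the membrane back to rest. Their families comprise voltage-gated channels (Kv, KCNQ and EAG families), modifier subunits that are silent alone and join other Kv subunits, inward rectifiers, two-pore-domain leak channels and channels opened by calcium or sodium. Neuroblastoma arises from sympathetic precursors of the neural crest, a lineage that becomes excitable as it matures.

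The silenced genes were examined first, in the words of the labels. ARID1A measured 6097, 6374 and 6463 in the Control libraries, 2169, 2159.9 and 2109 in shARID1A.2 and 2289, 2157 and 2284 in shARID1A.4. Libraries labelled shARID1B.2 held 1962, 1882 and 1916 and those labelled shARID1B.3 2507, 2479.9 and 2449.7, whereas shARID1A/B.2.3 held 5510.3, 5752 and 5714 and shARID1A/B.4.2 5589, 5352 and 5379. ARID1B measured 5793, 5804 and 5791 in Control, 2252, 2248 and 2224 in shARID1A.2, 3065, 3109.7 and 3126 in shARID1A.4, 5056, 4913 and 5043 in shARID1B.2, 6182, 6038 and 6053 in shARID1B.3, 2540.5, 2651 and 2607 in shARID1A/B.2.3 and 1886, 1881 and 1955 in shARID1A/B.4.2. The libraries labelled shARID1A were thus low in both transcripts, those labelled shARID1B were low in ARID1A, and those labelled shARID1A/B were low in ARID1B. The other differences were smaller, with log2 fold changes of ARID1A of -0.16 ± 0.029 in shARID1A/B.2.3 and -0.21 ± 0.029 in shARID1A/B.4.2, and of ARID1B of -0.21 ± 0.023 in shARID1B.2 and 0.072 ± 0.023 in shARID1B.3. With scaling to library totals the change of ARID1A in shARID1A/B.4.2 no longer passed the test. This goes against what the labels name for the groups labelled shARID1B and shARID1A/B and in part for shARID1A, so every direction below belongs to the libraries as labelled and not to the silencing of a named gene.

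**Figure D1:**
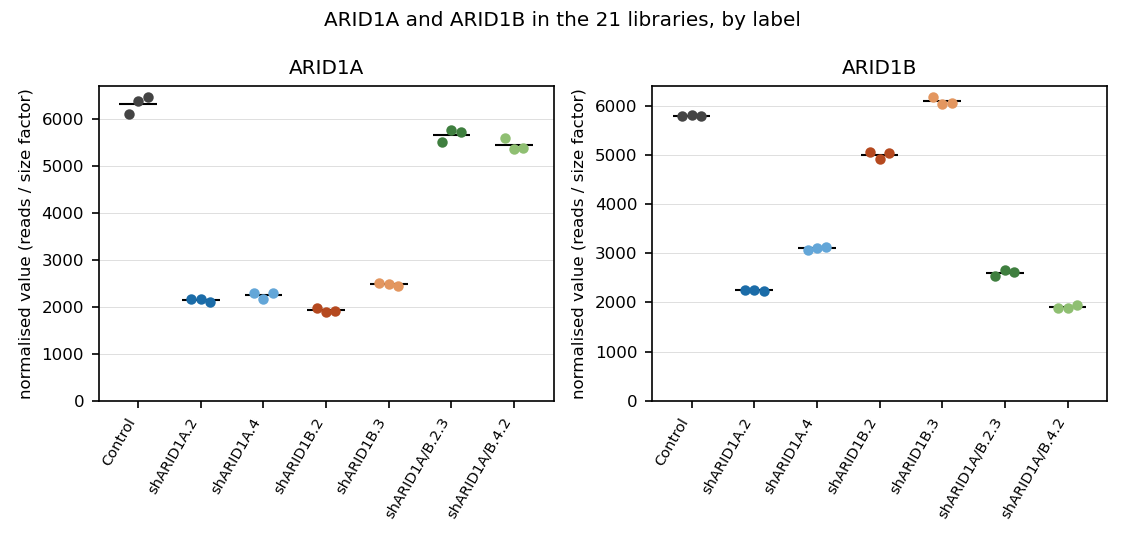
Normalised value (reads divided by size factor, linear axis from 0) of ARID1A and ARID1B in the 21 libraries, with 3 points per label and a bar at their mean. ARID1A lies between 1882 and 2507 in the libraries labelled shARID1A and shARID1B, and ARID1B between 1881 and 3126 in those labelled shARID1A and shARID1A/B.

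Depth and cell identity were checked over the series. Recovered reads ranged from 27954334 to 41077638 per library. All 9 markers of adrenergic neuroblastoma had a median of 5 or more, among them HAND2 and MYCN, the amplified oncogene of this line. Their summed level moved with condition, being 186342 to 191549 in Control, 147159 to 152578 in shARID1A.2, 472613 to 491086 in shARID1A.4, 126959.5 to 133609.5 in shARID1B.2, 199122 to 222916 in shARID1B.3, 279211 to 286375 in shARID1A/B.2.3 and 148198 to 150626 in shARID1A/B.4.2. MYCN made up most of this sum in every condition, so the sum mainly follows MYCN. Its mean was 122676 in Control, 93294 in shARID1A.2, 418088 in shARID1A.4 and 79339 in shARID1B.2. In shARID1B.3 MYCN averaged 157306, in shARID1A/B.2.3 218568 and in shARID1A/B.4.2 85143. HAND2, a transcription factor of sympathetic neurons, averaged 19231 in Control, 5922 in shARID1A.2, 6854 in shARID1A/B.4.2 and 14707 to 17087 in the other conditions. Of the 5 Schwann cell markers, SOX10 was at 0 in every library and the other 4 had a median of 5 or more, with a summed level of 137 to 161 in Control and 569 to 608 in shARID1A.2, the highest. All 5 fibroblast genes of the list were detected, and their summed level moved with condition, being 33383 to 33902 in Control, 9800.4 to 10558 in shARID1A.2, 12751 to 13011 in shARID1A.4, 29061 to 30169.8 in shARID1B.2, 28054 to 29552 in shARID1B.3, 18371 to 18689 in shARID1A/B.2.3 and 12893 to 13350.0 in shARID1A/B.4.2. DCN did not follow this fibroblast sum in every condition. It averaged 1945 in Control, 2711 in shARID1A.2, 4704 in shARID1B.2 and 3003 in shARID1B.3, and was below Control in the other silenced conditions. COL1A2 was low throughout, at 1.0 to 24.7. PTPRC was the only one of 4 leukocyte markers with a median of 5 or more, and the 4 summed to 402 to 428 in Control and 57.3 to 313 across the silenced conditions. Of 4 skeletal muscle markers 2 had a median of 5 or more, and all 4 summed to 18.4 to 66.6 over the libraries. The part of these differences in the channel gene results was not tested, and a loss of cells of one kind and a loss of transcript per cell cannot be told apart in bulk RNA.

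The sequences just upstream of 5 members are shown because the results below turn on neighbours that moved differently in some or all conditions: SCN2B and SCN4B on chromosome 11, SCN1A and SCN9A on chromosome 2, and KCNK3, whose libraries labelled shARID1A/B lay apart from all others. Each is the 250 bases before the RefSeq gene start (GRCh38.p14), 5′ to 3′ on the gene's strand. Capitals mark matches on either strand to AP-1 (TGACTCA or TGAGTCA), the E-box CACGTG, the REST element pieces CAGCACC and GGACAG, the GC box GGGCGG or the TATA box TATAAA, with overlapping matches all counted. SCN2B lies at chr11:118176640-118176889, minus strand, and none of these letters was found in its window. SCN4B lies at chr11:118145434-118145683, minus strand, inside the longer gene body of GENCODE release 29, SCN1A at chr2:166128021-166128270, minus strand, likewise inside the GENCODE gene body, SCN9A at chr2:166375945-166376194, minus strand and KCNK3 at chr2:26692472-26692721, plus strand. Which start these cells use was not tested.
SCN2B: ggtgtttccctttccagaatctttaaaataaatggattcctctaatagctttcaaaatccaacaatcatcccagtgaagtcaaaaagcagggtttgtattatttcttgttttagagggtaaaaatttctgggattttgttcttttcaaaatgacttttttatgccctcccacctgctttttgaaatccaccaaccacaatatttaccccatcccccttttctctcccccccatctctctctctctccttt
SCN4B: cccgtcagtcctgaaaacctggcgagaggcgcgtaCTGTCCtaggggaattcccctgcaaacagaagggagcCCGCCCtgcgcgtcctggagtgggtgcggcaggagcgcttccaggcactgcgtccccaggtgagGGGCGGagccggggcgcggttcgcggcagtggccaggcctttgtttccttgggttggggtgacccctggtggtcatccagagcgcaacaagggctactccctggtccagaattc
SCN1A: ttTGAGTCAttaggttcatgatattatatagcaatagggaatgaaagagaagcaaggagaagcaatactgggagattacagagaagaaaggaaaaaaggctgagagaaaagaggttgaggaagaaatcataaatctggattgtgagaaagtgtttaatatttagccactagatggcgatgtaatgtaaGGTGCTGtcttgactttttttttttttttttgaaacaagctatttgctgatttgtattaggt
SCN9A: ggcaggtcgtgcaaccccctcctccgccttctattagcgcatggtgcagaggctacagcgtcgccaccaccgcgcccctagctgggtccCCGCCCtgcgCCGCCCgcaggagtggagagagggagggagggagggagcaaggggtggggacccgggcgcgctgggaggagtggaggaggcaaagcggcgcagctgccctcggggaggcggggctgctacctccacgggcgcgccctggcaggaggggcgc
KCNK3: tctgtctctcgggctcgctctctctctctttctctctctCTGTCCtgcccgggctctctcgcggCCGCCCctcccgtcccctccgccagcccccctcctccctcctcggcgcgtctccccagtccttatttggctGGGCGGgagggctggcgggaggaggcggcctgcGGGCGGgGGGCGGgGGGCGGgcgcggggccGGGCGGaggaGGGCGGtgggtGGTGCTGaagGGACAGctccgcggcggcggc

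The SCN2B and SCN4B windows differed in base composition, with 38.0% and 66.0% G or C, and so did those of SCN1A (33.6%) and SCN9A (74.0%). KCNK3 had 76.4% G or C and held GC boxes and both REST element pieces. Over the 98 members with an entry, 63 of which were tested, the median was 64.8% G or C (66.0% over the tested ones), beside 58.0% over all 27305 promoters of the table. A GC box was found in 66.67% of the tested members' windows and 42.31% of all windows. The pieces of the element bound by REST, a repressor of neuronal genes, were in 11.11% (CAGCACC) and 23.81% (GGACAG) of the tested members' windows, beside 6.07% and 17.15% of all. The E-box stood in 7.94% against 6.49%, AP-1 in 1.59% against 4.16% and the TATA box in 4.76% against 11.13%. These matches describe letters in a window and say nothing of binding.

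In Control cells the channel genes spanned a wide range of levels. Per kilobase of exon, the most abundant member was KCNJ8, the pore subunit Kir6.1 of ATP-sensitive potassium channels, at 1811 ± 30.4 (SD, n = 3 for these levels), followed by KCNH2, the hERG channel, at 1744 ± 27.9 and CACNA2D1, the alpha2delta-1 subunit that binds gabapentin, at 1201 ± 27.1. CACNA2D2 stood at 511 ± 14.7 and SCN9A, the sodium channel Nav1.7 of sensory and sympathetic neurons, at 482 ± 15.1, and the difference between these last 2 was about the sum of their SD. CACNG4 (438 ± 11.8) came next, followed at a distance by KCNG1 (234 ± 7.09), KCNK1 (228 ± 7.40), SCN3B (222 ± 4.71) and SCN3A (218 ± 7.78), neighbours of which differed by no more than the larger of their SD. The highest member of the other groups was KCNQ5 among KCNQ genes (168 ± 4.12), CACNB3 among calcium channel beta subunits (118 ± 7.97), KCNT2 among calcium- and sodium-activated channels (92.5 ± 6.60), CACNA1H, a T-type channel, among calcium channel alpha1 subunits (85.7 ± 7.14), KCNMB4 among auxiliary subunits (61.1 ± 1.61) and KCNC1, the fast channel Kv3.1, among Kv alpha subunits (41.1 ± 0.29).

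The 46 members under a mean of 5 included SCN4A and SCN10A, the sodium channels of skeletal muscle and nociceptors, CACNA1A, CACNA1E, CACNA1F and CACNA1S, all 6 KCNE genes and 9 of 17 Kv alpha genes, and 31 of the 46 had a mean under 1. Just outside the threshold stood CACNA1A, the P/Q-type channel, with a mean of 4.06, and KCNJ5 with 3.92. Just inside it were KCNK12, KCNN4 and KCNJ3, with means of 6.36, 5.97 and 5.78. Of the 91 genes that passed, 6 had a Control mean under 5 and passed through other conditions, so counts over the 91 describe the genes that passed and not the whole family.

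Each silenced condition was compared with Control to ask which channel genes moved. Channel genes changed in both directions in every condition, and the balance differed between conditions. Of the 91 tested genes, in shARID1A.2 62 changed (68.1%, beside 75.6% of all genes tested), 17 were 2-fold higher (18.7%, beside 13.8% of all genes tested) and 12 2-fold lower (13.2%, beside 10.7%). In shARID1A.4, 69 changed (75.8%, beside 73.5%), 19 were 2-fold higher (20.9%, beside 9.31% of all genes tested) and 15 2-fold lower (16.5%, beside 12%). For shARID1B.2, 55 changed (60.4%, beside 65.1%), 16 were 2-fold higher (17.6%, beside 6.61% of all genes tested) and 7 2-fold lower (7.69%, beside 5.03%). The split turned in shARID1B.3, where 49 changed (53.8%, beside 63.7%), 4 were 2-fold higher (4.4%, beside 5.18% of all genes tested) and 17 2-fold lower (18.7%, beside 6.53%). With shARID1A/B.2.3, 60 changed (65.9%, beside 69%), 13 were 2-fold higher (14.3%, beside 6.98% of all genes tested) and 11 2-fold lower (12.1%, beside 9.01%). Under shARID1A/B.4.2, 58 changed (63.7%, beside 70.7%), 13 were 2-fold higher (14.3%, beside 9.98% of all genes tested) and 13 2-fold lower (14.3%, beside 8.07%). The share that changed at all was near or under that of all genes, and the share past 2-fold was above it except for higher genes in shARID1B.3.

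The size of the changes was described by the median log2 fold change without sign. It was 0.656 over the tested channel genes and 0.515 over all genes in shARID1A.2, 0.704 and 0.484 in shARID1A.4, 0.392 and 0.344 in shARID1B.2, 0.49 and 0.326 in shARID1B.3, 0.508 and 0.419 in shARID1A/B.2.3, and 0.516 and 0.433 in shARID1A/B.4.2. In these comparisons, which share the Control libraries, 61 genes changed 2-fold in at least 1 condition (67%, beside 44.5% of all genes tested) and 30 in none. Only higher were 23 (25.3%, beside 19.7%), only lower 29 (31.9%, beside 21.7%), and 9 were 2-fold higher in some conditions and 2-fold lower in others (9.89%, beside 3.06%). Scaling moved some of the splits: with library totals the 2-fold counts were 21 higher and 5 lower in shARID1B.2 and 19 and 11 in shARID1A/B.4.2, and with upper quartiles 6 and 13 in shARID1B.3.

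**Figure D2:**
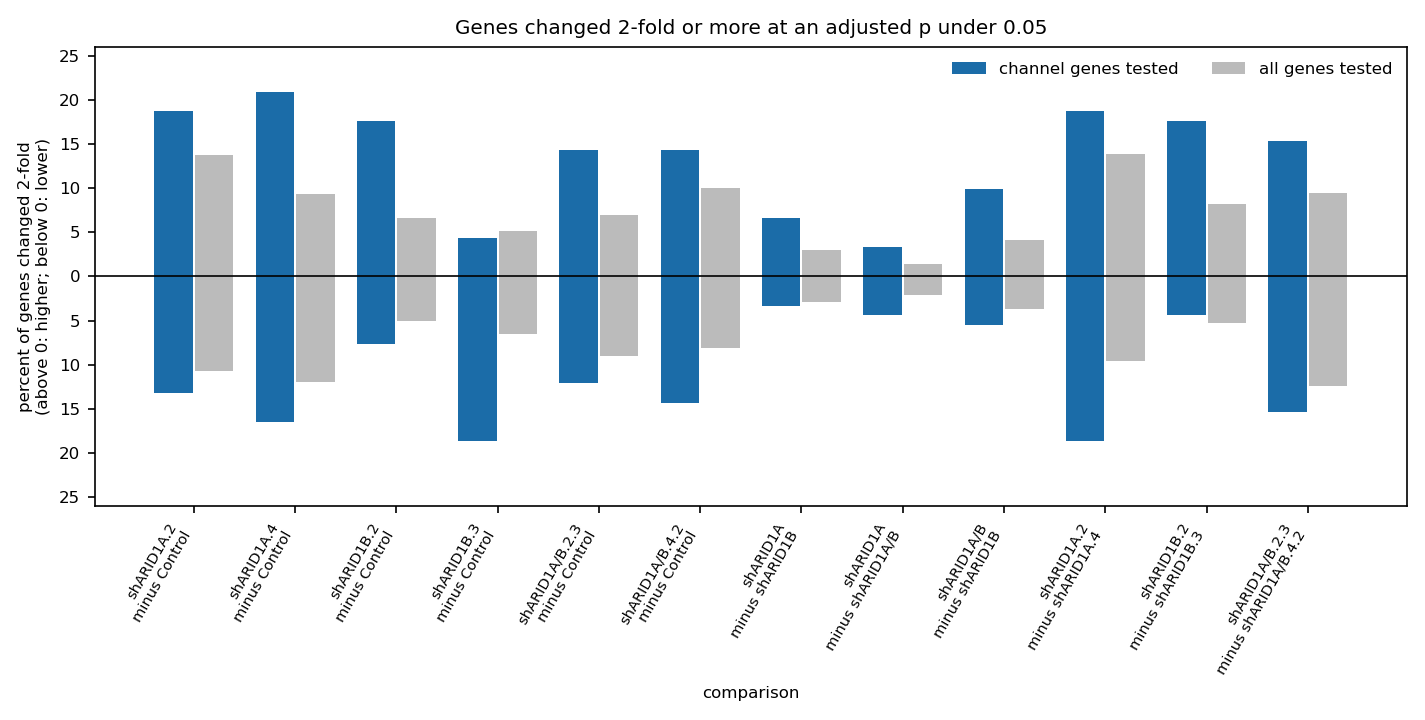
Percent of genes changed 2-fold or more at an adjusted p under 0.05 in 12 comparisons, upward above 0 and downward below 0, for the 91 channel genes tested (blue) and all 18615 genes tested (grey). The blue bar is longer than the grey bar in 11 of 12 comparisons upward and in 11 of 12 downward.

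**Figure D3:**
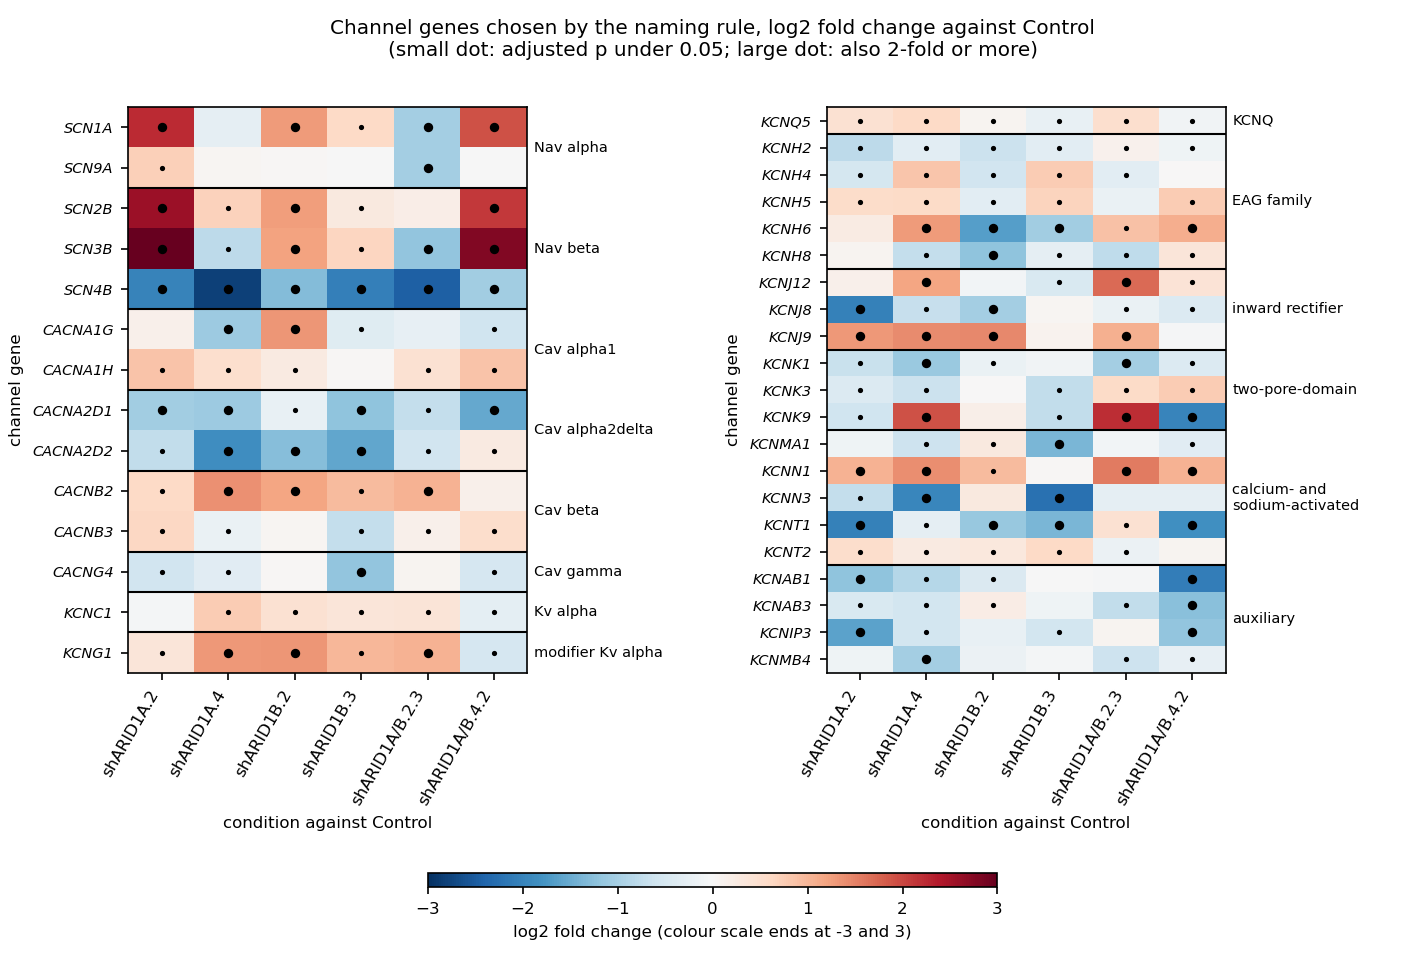
Log2 fold change against Control (colour, ending at -3 and 3) of the 35 channel genes that the naming rule gave and that are reported here, grouped by family, in the 6 silenced conditions. A small dot marks an adjusted p under 0.05 and a large dot a change that is also 2-fold or more, so SCN4B carries a large dot on blue in every column and SCN3B large dots on red and on blue.

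Sodium channel beta subunits, single-pass membrane proteins with an immunoglobulin fold, tune channel gating and take part in cell adhesion. All 4 genes were tested, and SCN2B, SCN3B and SCN4B are described here. SCN3B measured 2098, 2153 and 2065 in the Control libraries, 22851, 22439.7 and 22763 in those labelled shARID1A.2 and 1222, 1171 and 1302 in those labelled shARID1A.4. SCN3B in shARID1B.2 was 4779, 5052 and 4869, in shARID1B.3 3177, 3436 and 3241, in shARID1A/B.2.3 886, 985 and 922 and in shARID1A/B.4.2 14532, 14660.1 and 14408. SCN3B (chromosome 11, 123629187 to 123655244, minus strand) encodes beta-3. Its replicates lay close together, and in no silenced condition did they overlap with Control. Against Control, SCN3B differed by 3.43 ± 0.037 in shARID1A.2, -0.77 ± 0.037 in shARID1A.4, 1.22 ± 0.037 in shARID1B.2, 0.64 ± 0.037 in shARID1B.3, -1.18 ± 0.037 in shARID1A/B.2.3 and 2.79 ± 0.037 in shARID1A/B.4.2 on the log2 scale, at an adjusted p of 1.28e-13 or less. It was therefore higher in 4 conditions, most in shARID1A.2 and shARID1A/B.4.2, and lower in shARID1A.4 and shARID1A/B.2.3. HAND2 was lowest in the same 2 conditions in which SCN3B was highest, and its part in this result was not tested.

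SCN2B measured 74, 76.1 and 78.1 in the Control libraries, 436, 448 and 488 in those labelled shARID1A.2 and 133, 128 and 112 in those labelled shARID1A.4. SCN2B in shARID1B.2 was 169, 186 and 197, in shARID1B.3 86.6, 102 and 91.5, in shARID1A/B.2.3 96.2, 93.8 and 74 and in shARID1A/B.4.2 373, 335 and 293. SCN2B, encoding beta-2, was above Control in every library of 5 conditions and overlapped with it in shARID1A/B.2.3. Against Control, SCN2B rose by 2.57 ± 0.11 in shARID1A.2, 0.70 ± 0.11 in shARID1A.4, 1.26 ± 0.11 in shARID1B.2, 0.29 ± 0.11 in shARID1B.3 and 2.11 ± 0.11 in shARID1A/B.4.2, with an adjusted p of at most 0.0253, and differed by 0.20 ± 0.11 (SE, adjusted p = 0.113) in shARID1A/B.2.3. SCN4B measured 242, 253 and 261 in the Control libraries, 59, 58.7 and 69 in those labelled shARID1A.2 and 41.8, 35.7 and 29.9 in those labelled shARID1A.4. SCN4B in shARID1B.2 was 98.9, 104 and 101, in shARID1B.3 66.7, 48.5 and 68.2, in shARID1A/B.2.3 33.4, 52.1 and 53.5 and in shARID1A/B.4.2 115, 123 and 126. SCN4B, encoding beta-4, was below all Control libraries in all 18 silenced libraries. Its log2 fold change was -2.00 ± 0.16 in shARID1A.2, -2.79 ± 0.16 in shARID1A.4, -1.30 ± 0.16 in shARID1B.2, -2.04 ± 0.16 in shARID1B.3, -2.45 ± 0.16 in shARID1A/B.2.3 and -1.05 ± 0.16 in shARID1A/B.4.2, with an adjusted p of at most 3.2e-06. Among the 59 tested members with a mean of 50 or more it was the only one 2-fold lower in all 6 conditions, and over the 31 alternatives its change in shARID1A/B.4.2 reached -0.87 at the weakest.

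**Figure D4:**
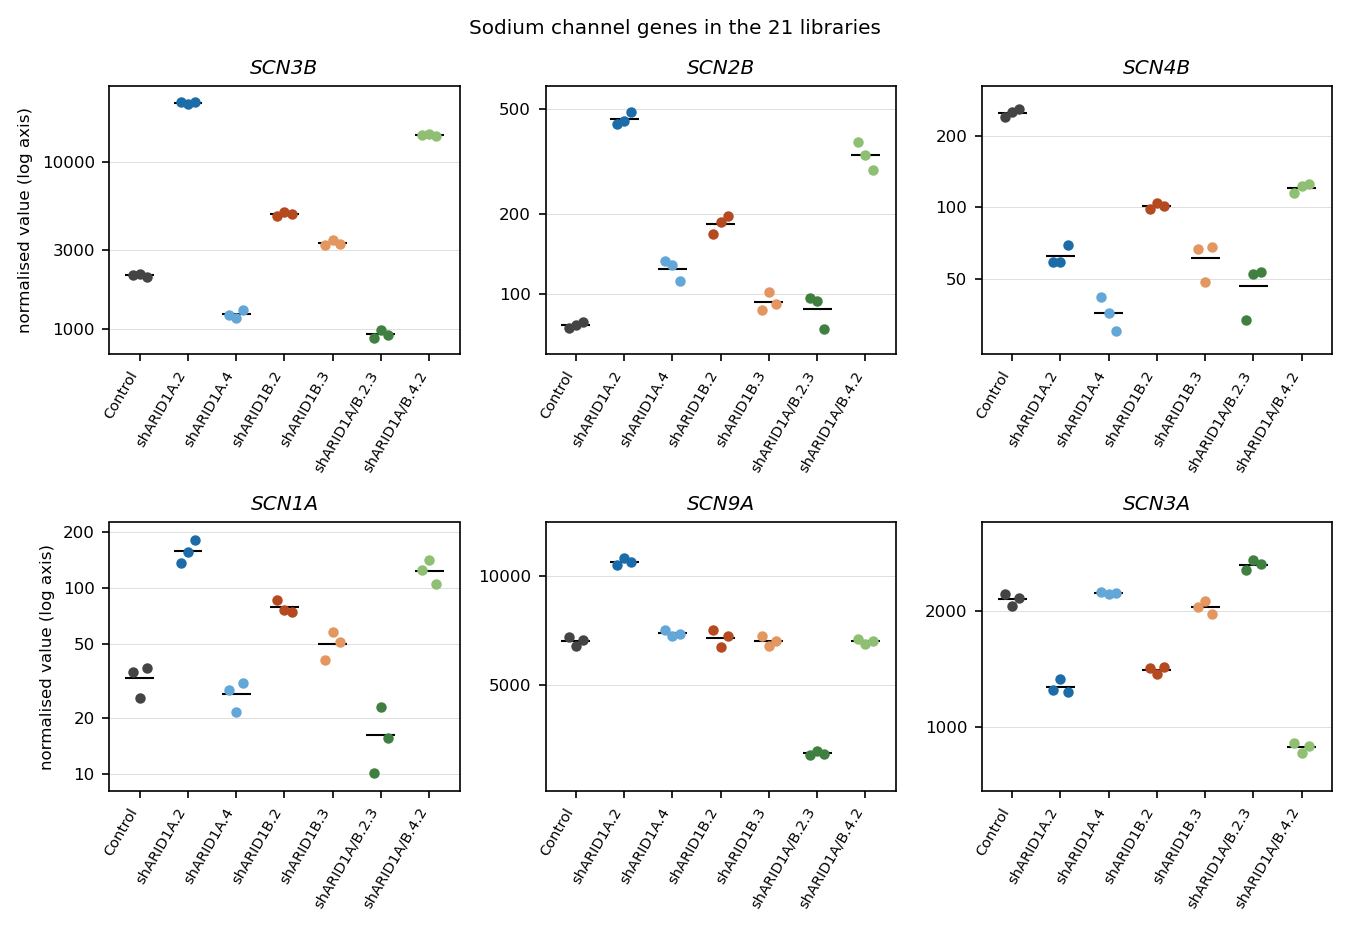
Normalised value (log axis) of 6 sodium channel genes in the 21 libraries, 3 points per label with a bar at their mean. SCN3B, SCN2B and SCN1A are highest in shARID1A.2 and shARID1A/B.4.2, SCN4B lies below Control in all 18 silenced libraries, and SCN9A is highest in shARID1A.2 and lowest in shARID1A/B.2.3.

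Among the sodium channel alpha subunits, 8 of 10 genes were tested, and the 2-fold counts were 2 higher and 1 lower in shARID1A.2, 1 lower in shARID1A.4, 1 higher in shARID1B.2, 1 lower in shARID1B.3, 2 lower in shARID1A/B.2.3 and 1 higher and 3 lower in shARID1A/B.4.2. SCN1A measured 35.2, 25.7 and 37 in the Control libraries, 137, 156 and 180.4 in those labelled shARID1A.2 and 28.2, 21.4 and 30.9 in those labelled shARID1A.4. SCN1A in shARID1B.2 was 86.7, 76.4 and 74.7, in shARID1B.3 40.8, 58 and 51, in shARID1A/B.2.3 10.1, 22.9 and 15.6 and in shARID1A/B.4.2 126, 141 and 105. SCN1A, the neuronal channel Nav1.1, overlapped with Control in shARID1A.4 and was separate from it in the other conditions. SCN1A rose by 2.25 ± 0.22 in shARID1A.2, 1.27 ± 0.22 in shARID1B.2, 0.60 ± 0.22 in shARID1B.3 and 1.90 ± 0.22 in shARID1A/B.4.2 and differed by -1.02 ± 0.22 in shARID1A/B.2.3 (adjusted p of at most 0.0218), and by -0.27 ± 0.22 (SE, adjusted p = 0.275) in shARID1A.4.

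SCN9A measured 6803, 6397 and 6675 in the Control libraries, 10692, 11209 and 10884 in those labelled shARID1A.2 and 7096, 6813 and 6925 in those labelled shARID1A.4. SCN9A in shARID1B.2 was 7104, 6364 and 6804, in shARID1B.3 6829, 6404 and 6594, in shARID1A/B.2.3 3201, 3293 and 3232 and in shARID1A/B.4.2 6713, 6493 and 6594. SCN9A, the most abundant sodium channel per kilobase, stood apart in 2 conditions. It rose in shARID1A.2 (0.72 ± 0.033, adjusted p = 3.25e-16) and fell in shARID1A/B.2.3 (-1.03 ± 0.033, adjusted p = 3.54e-19), its values in shARID1B.2, shARID1B.3 and shARID1A/B.4.2 overlapped with Control, and in shARID1A.4 it differed by 0.068 ± 0.033 (SE, adjusted p = 0.0622). SCN3A (Nav1.3) fell 2-fold in shARID1A/B.4.2 (-1.27 ± 0.037, adjusted p = 6.43e-20) but rose in shARID1A/B.2.3 (0.30, adjusted p = 1.18e-07). It also fell, by less than 2-fold, in shARID1A.2 (-0.76) and shARID1B.2 (-0.61). SCN2A (Nav1.2) and SCN8A (Nav1.6) remained under 2-fold, with log2 fold changes from -0.79 to 0.68 and from -0.33 to 0.19.

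Several of these genes are neighbours. SCN4B (chromosome 11, 118133377 to 118152888, minus strand, GRCh38, GENCODE release 29) and SCN2B (chromosome 11, 118161951 to 118176673, minus strand) lie 9.1 kb apart on the same strand. In shARID1A.2 SCN2B changed by 2.57 and SCN4B by -2.00, in shARID1B.2 by 1.26 and -1.30, and in shARID1A/B.4.2 by 2.11 and -1.05. On chromosome 2, SCN1A (chromosome 2, 165984641 to 166149214, minus strand) lies 46.0 kb from SCN9A, and SCN9A 27.6 kb from SCN7A, an atypical sodium-sensing channel. In shARID1A/B.4.2 SCN1A changed by 1.90, SCN9A by -0.005 (adjusted p = 0.9) and SCN7A by -1.01. SCN1A and SCN9A did not part in every condition. They changed by -1.02 and -1.03 in shARID1A/B.2.3, and both rose in shARID1A.2, by 2.25 and 0.72. KCNJ9 and KCNJ10 lie 11.1 kb apart on opposite strands of chromosome 1, and in shARID1A.4 KCNJ9 changed by 1.41 while KCNJ10 measured 11.2 to 21.1 in Control and 0 to 1.0 there. In CACNG7 and CACNG8, 19.1 kb apart on chromosome 19, no change reached 2-fold: the log2 fold changes were 0.15 to 0.93 and -0.15 to 0.73.

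Alpha2delta subunits help to carry calcium channels to the membrane. CACNA2D1 fell in all 6 conditions and CACNA2D2 in 5. Of 4 alpha2delta genes 3 were tested, and the 2-fold counts were 1 lower in shARID1A.2, 2 lower in shARID1A.4, 1 lower in shARID1B.2, 2 lower in shARID1B.3, 0 in shARID1A/B.2.3 and 1 lower in shARID1A/B.4.2. CACNA2D1 measured 11095, 10626 and 10741 in the Control libraries, 5257, 5392 and 5099 in those labelled shARID1A.2 and 5242, 4816 and 5233 in those labelled shARID1A.4. CACNA2D1 in shARID1B.2 was 9642, 8911 and 9487, in shARID1B.3 4913, 4374 and 4784, in shARID1A/B.2.3 6626, 6642 and 6394 and in shARID1A/B.4.2 3886, 3439.8 and 3799.7. CACNA2D1, encoding alpha2delta-1, was below Control in all 18 silenced libraries. On the log2 scale it changed by -1.04 ± 0.044 in shARID1A.2, -1.09 ± 0.044 in shARID1A.4, -0.21 ± 0.044 in shARID1B.2, -1.21 ± 0.044 in shARID1B.3, -0.72 ± 0.044 in shARID1A/B.2.3 and -1.55 ± 0.044 in shARID1A/B.4.2, with an adjusted p of at most 0.000159. CACNA2D2 measured 3199, 3338 and 3160.2 in the Control libraries, 1873, 2041 and 1891 in those labelled shARID1A.2 and 865, 878 and 899 in those labelled shARID1A.4. CACNA2D2 in shARID1B.2 was 1401, 1211 and 1366, in shARID1B.3 1250.4, 986 and 1072, in shARID1A/B.2.3 2184, 2187 and 2160.0 and in shARID1A/B.4.2 4197, 3707 and 3861. CACNA2D2, encoding alpha2delta-2, was below Control in 5 conditions and above it in shARID1A/B.4.2. Its log2 fold change was -0.74 ± 0.062 in shARID1A.2, -1.87 ± 0.062 in shARID1A.4, -1.29 ± 0.062 in shARID1B.2, -1.56 ± 0.062 in shARID1B.3, -0.57 ± 0.062 in shARID1A/B.2.3 and 0.28 ± 0.062 in shARID1A/B.4.2 (adjusted p of at most 0.00033). Exons of CYB561D2 on the opposite strand overlap 9.6% of its exon length, and the strand setting of the counting is not given in the sources used here. CACNA2D3 stayed between -0.36 and 0.57.

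Of the 10 pore-forming alpha1 genes, 6 were tested, and the 2-fold counts were 1 higher in shARID1A.2, 1 higher and 2 lower in shARID1A.4, 2 higher in shARID1B.2, 1 higher and 1 lower in shARID1B.3, 0 in shARID1A/B.2.3 and 1 lower in shARID1A/B.4.2. CACNA1G measured 68.1, 64.9 and 58.5 in the Control libraries, 82.3, 63.9 and 66.8 in those labelled shARID1A.2 and 28.2, 25 and 36.9 in those labelled shARID1A.4. CACNA1G in shARID1B.2 was 157, 141 and 193, in shARID1B.3 53.8, 49.4 and 44.9, in shARID1A/B.2.3 50.6, 58.4 and 52.5 and in shARID1A/B.4.2 41.9, 44 and 40.3. CACNA1G, the T-type channel Cav3.1, was above Control in shARID1B.2, overlapped with it in shARID1A.2 and was below it in the other conditions, lowest in shARID1A.4. Its change was 1.33 ± 0.16 (SE, adjusted p = 6.01e-08) in shARID1B.2 and -1.08 ± 0.16 (SE, adjusted p = 1.25e-06) in shARID1A.4. CACNA1H, the T-type channel Cav3.2, rose in 5 conditions by 0.27 to 0.85 (adjusted p of at most 0.000948) and overlapped with Control in shARID1B.3. The N-type CACNA1B and L-type CACNA1C remained under 2-fold, with log2 fold changes of -0.093 to 0.81 and -0.99 to 0.52.

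The cytoplasmic beta subunits, all 4 tested, gave 0 in shARID1A.2, 1 higher in shARID1A.4, 1 higher in shARID1B.2, 0 in shARID1B.3, 2 higher in shARID1A/B.2.3 and 0 in shARID1A/B.4.2 past 2-fold. CACNB2 measured 91.8 to 107 in Control and 143 to 303 in 5 silenced conditions, all higher than Control, while the shARID1A/B.4.2 libraries (100.2 to 123) overlapped with it. Its rise was 0.61 ± 0.099 in shARID1A.2, 1.38 ± 0.099 in shARID1A.4, 1.17 ± 0.099 in shARID1B.2, 0.94 ± 0.099 in shARID1B.3 and 1.05 ± 0.099 in shARID1A/B.2.3 (adjusted p of at most 6.16e-06). CACNB3 moved both ways under 2-fold, from -0.71 in shARID1B.3 to 0.63 in shARID1A.2. Of the 8 gamma subunit genes, whose members 2 to 5, 7 and 8 mostly serve as auxiliary subunits of AMPA glutamate receptors, 5 were tested and the 2-fold changes were falls in shARID1B.3. CACNG4 fell there by 1.18 on the log2 scale, from 1527, 1455 and 1460.5 in Control to 741, 590.0 and 642 (adjusted p = 3.11e-14).

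Voltage-gated potassium channel alpha subunits repolarise the membrane after a spike. Of 17 genes, 8 were tested, and the 2-fold counts were 2 higher and 1 lower in shARID1A.2, 2 higher and 1 lower in shARID1A.4, 2 higher and 1 lower in shARID1B.2, 1 higher and 1 lower in shARID1B.3, 1 higher and 1 lower in shARID1A/B.2.3 and 3 higher and 1 lower in shARID1A/B.4.2. KCNC1, the highest of them per kilobase in Control, stayed under 2-fold, between -0.28 and 0.77.

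Modifier subunits do not conduct alone and join other Kv subunits. Of 10 genes 5 were tested, with 2 higher in shARID1A.2, 3 higher and 1 lower in shARID1A.4, 3 higher in shARID1B.2, 1 higher in shARID1B.3, 2 higher and 2 lower in shARID1A/B.2.3 and 2 higher in shARID1A/B.4.2 past 2-fold. KCNG1 measured 1243, 1314 and 1253 in the Control libraries, 1704, 1571 and 1640.4 in those labelled shARID1A.2 and 3265, 3122 and 3031 in those labelled shARID1A.4. KCNG1 in shARID1B.2 was 3001, 3214 and 3274, in shARID1B.3 2648, 2525 and 2376, in shARID1A/B.2.3 2569.8, 2669.6 and 2610.5 and in shARID1A/B.4.2 823, 945 and 904. KCNG1 (Kv6.1), the most abundant of them per kilobase, was above Control in 5 conditions and below it in shARID1A/B.4.2. Its change was 0.37 ± 0.047 in shARID1A.2, 1.30 ± 0.047 in shARID1A.4, 1.32 ± 0.047 in shARID1B.2, 0.99 ± 0.047 in shARID1B.3, 1.04 ± 0.047 in shARID1A/B.2.3 and -0.51 ± 0.047 in shARID1A/B.4.2, at an adjusted p of 1.42e-07 or less.

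**Figure D5:**
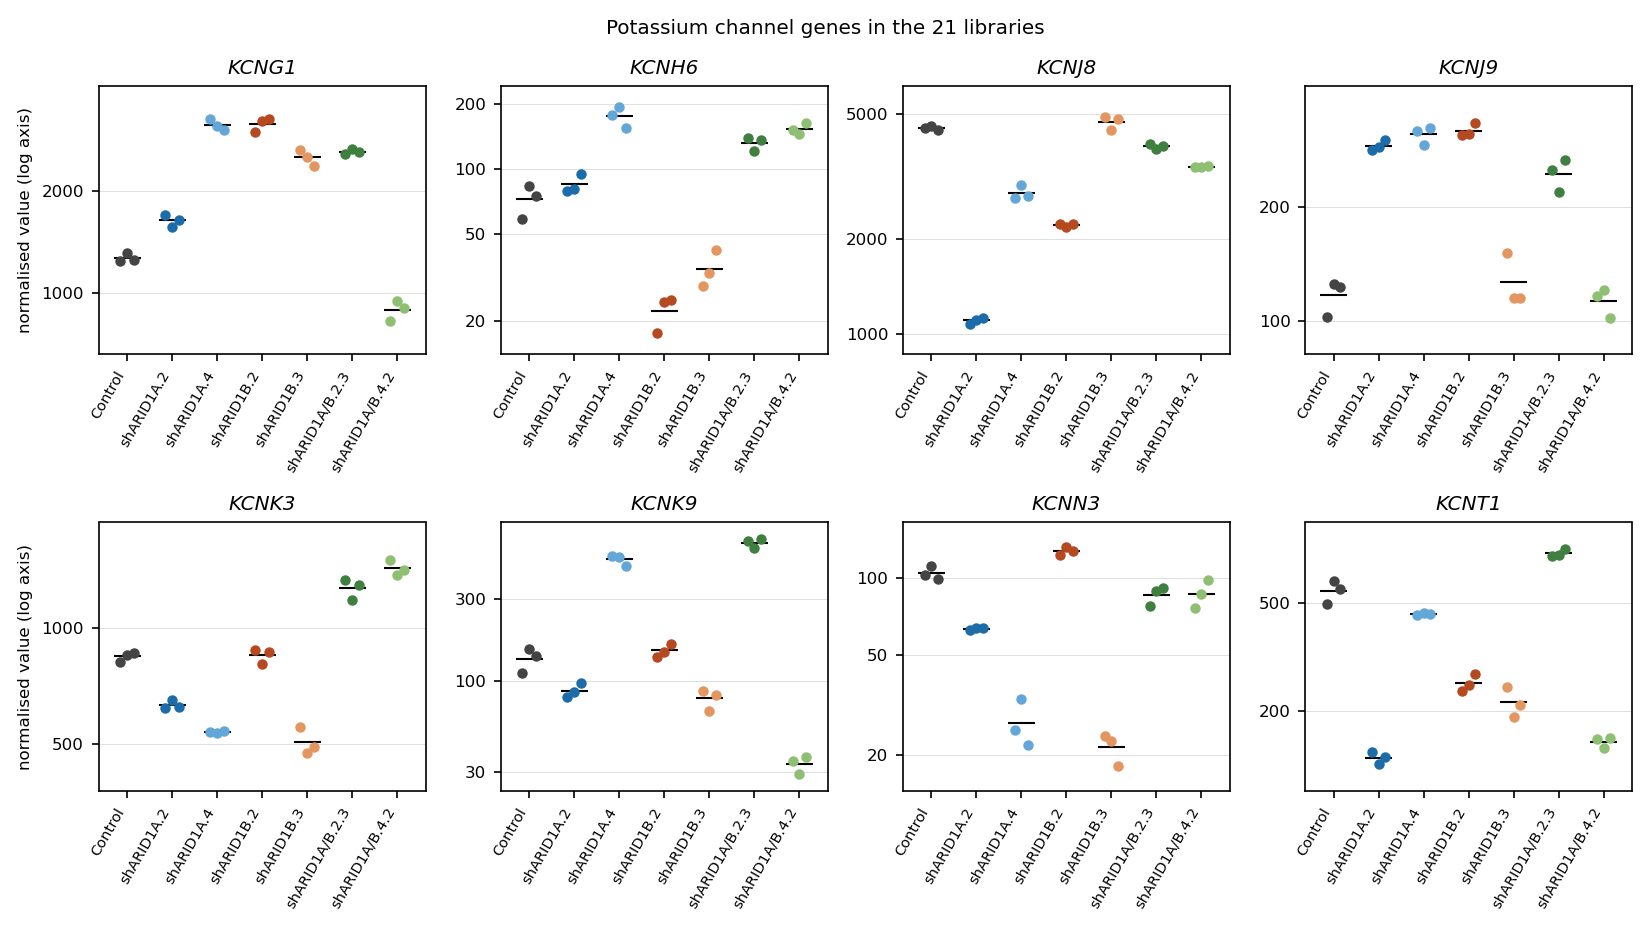
Normalised value (log axis) of 8 potassium channel genes in the 21 libraries, 3 points per label with a bar at their mean. KCNG1 lies above Control in every silenced condition except shARID1A/B.4.2, and KCNK9 ranges from 29.4 to 36.5 in shARID1A/B.4.2 up to 586 to 660 in shARID1A/B.2.3.

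In the KCNQ family, several members of which carry the M current that restrains firing, all 5 genes were tested. KCNQ5, the most abundant of them per kilobase, changed by less than 2-fold, between -0.21 and 0.59. With scaling to library totals, the change of KCNQ5 in shARID1A/B.4.2 (-0.11) lost its call and its sign.

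The EAG family comprises the EAG, ERG and ELK channels. Of 8 genes, 7 were tested, and the 2-fold counts were 1 higher in shARID1A.2, 1 higher in shARID1A.4, 1 higher and 2 lower in shARID1B.2, 1 lower in shARID1B.3, 0 in shARID1A/B.2.3 and 1 higher in shARID1A/B.4.2. KCNH2, which encodes hERG, measured 10263, 10083 and 10410.2 in Control and 5669 to 11292 over the silenced libraries. It changed by -0.79 ± 0.032 in shARID1A.2, -0.32 ± 0.032 in shARID1A.4, -0.65 ± 0.032 in shARID1B.2 and -0.32 ± 0.032 in shARID1B.3 and by 0.12 ± 0.032 in shARID1A/B.2.3 (adjusted p of at most 0.00153), all under 2-fold. In shARID1A/B.4.2 it fell by 0.14 on the log2 scale, and with scaling to library totals this change lost its call and its sign. KCNH6 measured 58.7, 83.9 and 75 in the Control libraries, 79.8, 81.4 and 94.7 in those labelled shARID1A.2 and 179, 194 and 156 in those labelled shARID1A.4. KCNH6 in shARID1B.2 was 17.5, 24.3 and 24.9, in shARID1B.3 28.9, 33.3 and 42.3, in shARID1A/B.2.3 139, 122 and 137 and in shARID1A/B.4.2 152, 145 and 163. KCNH6, a further ERG channel, was below Control in both conditions labelled shARID1B, above it in shARID1A.4 and both labelled shARID1A/B, and overlapped with it in shARID1A.2. Its change was 1.28 ± 0.16 in shARID1A.4, -1.66 ± 0.16 in shARID1B.2, -1.04 ± 0.16 in shARID1B.3, 0.87 ± 0.16 in shARID1A/B.2.3 and 1.08 ± 0.16 in shARID1A/B.4.2 (adjusted p of at most 3.23e-05) and 0.24 ± 0.16 (SE, adjusted p = 0.175) in shARID1A.2. KCNH8, an ELK channel, fell 2-fold in shARID1B.2 (-1.20 ± 0.059, adjusted p = 4.9e-15), with 353 to 408 there and 836 to 899 in Control. KCNH4, an ELK channel, and KCNH5, an EAG channel, rose in shARID1B.3 by 0.77 ± 0.1 and 0.68 ± 0.1, under 2-fold, with an adjusted p of 5.29e-07 and 2.16e-06. In shARID1B.2 both fell, with changes of -0.58 and -0.32 (adjusted p = 2.49e-05 and 0.0073). KCNH4 also rose in shARID1A.4 (0.84) and fell in shARID1A.2 (-0.52) and shARID1A/B.2.3 (-0.31). KCNH5 also rose in shARID1A.2 (0.55), shARID1A.4 (0.58) and shARID1A/B.4.2 (0.76).

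Inward rectifiers pass potassium near the resting potential. Of 16 genes 9 were tested, and the 2-fold counts were 3 higher and 2 lower in shARID1A.2, 5 higher and 2 lower in shARID1A.4, 3 higher and 1 lower in shARID1B.2, 1 higher and 1 lower in shARID1B.3, 4 higher and 2 lower in shARID1A/B.2.3 and 1 higher in shARID1A/B.4.2. KCNJ8 measured 4498, 4576 and 4425 in the Control libraries, 1083, 1111 and 1130.3 in those labelled shARID1A.2 and 2708, 2969 and 2740.4 in those labelled shARID1A.4. KCNJ8 in shARID1B.2 was 2241, 2196 and 2244, in shARID1B.3 4893, 4442 and 4812, in shARID1A/B.2.3 4011, 3870.0 and 3959 and in shARID1A/B.4.2 3379, 3398 and 3420.4. KCNJ8 was below Control in every library of 5 conditions and overlapped with it in shARID1B.3. It changed by -2.02 ± 0.034 in shARID1A.2, -0.68 ± 0.034 in shARID1A.4, -1.01 ± 0.034 in shARID1B.2, -0.19 ± 0.034 in shARID1A/B.2.3 and -0.40 ± 0.034 in shARID1A/B.4.2 (adjusted p of at most 2.51e-05) and differed by 0.067 ± 0.034 (SE, adjusted p = 0.0913) in shARID1B.3. KCNJ9, a subunit of G protein-gated channels, measured 102 to 125 in Control and 219 to 334 in the 4 conditions in which it rose 2-fold, by 1.06 to 1.44 (adjusted p of at most 2.17e-09), and overlapped with Control in shARID1B.3 and shARID1A/B.4.2. KCNJ12 (Kir2.2) rose 2-fold in shARID1A.4 (1.19 ± 0.16, adjusted p = 3.52e-07) and shARID1A/B.2.3 (1.69 ± 0.16, adjusted p = 1.02e-09). It has a near-identical copy, KCNJ18, between which reads can be split, so its values are uncertain.

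Two-pore-domain channels carry background potassium leak. Of 15 genes 11 were tested, with 2 higher and 2 lower in shARID1A.2, 4 higher and 3 lower in shARID1A.4, 1 higher in shARID1B.2, 3 lower in shARID1B.3, 1 higher and 2 lower in shARID1A/B.2.3 and 1 higher and 2 lower in shARID1A/B.4.2 past 2-fold. KCNK9 measured 112, 153 and 141 in the Control libraries, 81.4, 86.5 and 98 in those labelled shARID1A.2 and 530.2, 524 and 464 in those labelled shARID1A.4. KCNK9 in shARID1B.2 was 139, 148 and 165, in shARID1B.3 88.6, 67.5 and 83.8, in shARID1A/B.2.3 647, 586 and 659.7 and in shARID1A/B.4.2 34.6, 29.4 and 36.5. KCNK9, the acid-sensitive channel TASK-3, was above Control in shARID1A.4 and shARID1A/B.2.3 and below it in shARID1A.2, shARID1B.3 and shARID1A/B.4.2. Its change was -0.60 ± 0.12 in shARID1A.2, 1.91 ± 0.12 in shARID1A.4, -0.75 ± 0.12 in shARID1B.3, 2.22 ± 0.12 in shARID1A/B.2.3 and -1.97 ± 0.12 in shARID1A/B.4.2 (adjusted p of at most 0.000126) and 0.17 ± 0.12 (SE, adjusted p = 0.245) in shARID1B.2, where it overlapped with Control. KCNK3 measured 819.8, 852 and 865 in the Control libraries, 622, 653 and 625 in those labelled shARID1A.2 and 540.0, 535 and 542 in those labelled shARID1A.4. KCNK3 in shARID1B.2 was 879.7, 809 and 867, in shARID1B.3 554, 474 and 491, in shARID1A/B.2.3 1333, 1185 and 1294 and in shARID1A/B.4.2 1503, 1372 and 1415. KCNK3, its relative TASK-1, was above Control in both conditions labelled shARID1A/B and below it in shARID1A.2, shARID1A.4 and shARID1B.3. Its change was -0.42 ± 0.053 in shARID1A.2, -0.65 ± 0.053 in shARID1A.4, -0.74 ± 0.053 in shARID1B.3, 0.59 ± 0.053 in shARID1A/B.2.3 and 0.76 ± 0.053 in shARID1A/B.4.2 (adjusted p of at most 1.53e-07) and 0.011 ± 0.053 (SE, adjusted p = 0.877) in shARID1B.2. KCNK1 (TWIK-1) fell 2-fold in shARID1A.4 (-1.12 ± 0.055, adjusted p = 2.21e-15) and shARID1A/B.2.3 (-1.01 ± 0.055, adjusted p = 2.11e-14), with 360.3 to 409.8 and 399 to 423 there and 799 to 852 in Control.

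Channels opened by intracellular calcium or sodium comprise the large-conductance channel KCNMA1, the small- and intermediate-conductance channels KCNN1 to KCNN4 and the sodium-activated KCNT1 and KCNT2. Of 8 genes 7 were tested, and the 2-fold counts were 1 higher and 1 lower in shARID1A.2, 1 higher and 1 lower in shARID1A.4, 1 lower in shARID1B.2, 3 lower in shARID1B.3, 2 higher in shARID1A/B.2.3 and 1 higher and 1 lower in shARID1A/B.4.2. KCNT1 measured 494, 601 and 564 in the Control libraries, 141, 127 and 135 in those labelled shARID1A.2 and 451, 458 and 453 in those labelled shARID1A.4. KCNT1 in shARID1B.2 was 235, 248 and 274, in shARID1B.3 244, 189 and 211, in shARID1A/B.2.3 745, 753 and 791 and in shARID1A/B.4.2 158, 145 and 158. KCNT1 was below Control in 5 conditions and above it in shARID1A/B.2.3. It changed by -2.03 ± 0.084 in shARID1A.2, -0.28 ± 0.084 in shARID1A.4, -1.13 ± 0.084 in shARID1B.2, -1.37 ± 0.084 in shARID1B.3, 0.47 ± 0.084 in shARID1A/B.2.3 and -1.84 ± 0.084 in shARID1A/B.4.2 (adjusted p of at most 0.00439). KCNN3 measured 103, 112 and 99.6 in the Control libraries, 62.3, 63.9 and 63.5 in those labelled shARID1A.2 and 25.2, 33.3 and 22 in those labelled shARID1A.4. KCNN3 in shARID1B.2 was 124, 133 and 128, in shARID1B.3 23.9, 22.8 and 18.1, in shARID1A/B.2.3 78, 89.6 and 91.5 and in shARID1A/B.4.2 76.5, 86.5 and 98.3. KCNN3 was lowest in shARID1A.4 and shARID1B.3, with changes of -1.95 ± 0.15 (SE, adjusted p = 1.84e-11) and -2.24 ± 0.15 (SE, adjusted p = 2.52e-12), and fell by 0.72 on the log2 scale in shARID1A.2 (adjusted p = 0.000141). KCNN1 measured 78.3 to 98.7 in Control and 159 to 272 in the 5 conditions other than shARID1B.3, where it overlapped with Control, and it rose by 0.95 to 1.55 in those 5 (adjusted p of at most 2.28e-09). KCNMA1 fell 2-fold in shARID1B.3 (-1.37 ± 0.058, adjusted p = 2.68e-16), where it measured 233 to 285 against 668 to 701 in Control. It rose in shARID1B.2 (0.29, adjusted p = 0.000131) and fell by less than 2-fold in shARID1A.4 (-0.61) and shARID1A/B.4.2 (-0.34). KCNT2 stayed under 2-fold, from -0.18 to 0.59.

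Of the 18 auxiliary potassium channel genes 9 were tested. The 2-fold changes were falls, 2 in shARID1A.2, 1 in shARID1A.4 and 3 in shARID1A/B.4.2. KCNAB1, a cytoplasmic beta subunit of Kv1 channels, measured 328, 313 and 334 in Control, 146, 135 and 140.3 in shARID1A.2 and 71, 89.6 and 71.2 in shARID1A/B.4.2, so both conditions lay below it, with -1.20 ± 0.1 (SE, adjusted p = 7.64e-11) and -2.07 ± 0.1 (SE, adjusted p = 2.27e-15). By less than 2-fold, KCNAB1 also fell in shARID1A.4 (-0.86, adjusted p = 3.76e-08) and shARID1B.2 (-0.43, adjusted p = 0.000576). KCNAB3, a further beta subunit of Kv1 channels, fell 2-fold in shARID1A/B.4.2 (-1.26 ± 0.091, adjusted p = 5.17e-12). KCNIP3, a calcium-binding partner of Kv4 channels, fell 2-fold in shARID1A.2 (-1.59 ± 0.16, adjusted p = 1.4e-09) and shARID1A/B.4.2 (-1.19 ± 0.16, adjusted p = 2.43e-07), with 21.6 to 26.7 and 30.1 to 34.6 there and 71.7 to 80.1 in Control. By less than 2-fold, KCNIP3 also fell in shARID1A.4 (-0.54, adjusted p = 0.00316) and shARID1B.3 (-0.55, adjusted p = 0.00377). KCNMB4, the neuronal beta-4 subunit of KCNMA1 channels, fell 2-fold in shARID1A.4 (-1.03 ± 0.089, adjusted p = 1.56e-10).

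The labels were then compared directly, taking the mean of the 2 conditions of each, in a fit whose spread comes from the libraries and not from the hairpins. In shARID1A against shARID1B, 6 of 91 genes were 2-fold higher (6.59%, beside 2.95% of all genes tested) and 3 lower (3.3%, beside 2.87%). Among members with a mean of 50 or more, KCNH6 was higher in shARID1A (2.11 ± 0.11, adjusted p = 1.9e-14), and CACNA1G (-0.95 ± 0.11, adjusted p = 4.58e-08) and KCNJ8 (-0.88 ± 0.024, adjusted p = 3.31e-20) were lower. The latter pair overlapped between the labels. CACNA1G was higher in shARID1A.2 (63.9 to 82.3) than in shARID1B.3 (44.9 to 53.8), with 25 to 36.9 in shARID1A.4 and 141 to 193 in shARID1B.2. KCNJ8 was higher in shARID1A.4 (2708 to 2969) than in shARID1B.2 (2196 to 2244). KCNH6 lay at 79.8 to 194 in the 6 libraries labelled shARID1A and 17.5 to 42.3 in the 6 labelled shARID1B, with no overlap.

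Between shARID1A and shARID1A/B, 3 genes were 2-fold higher in shARID1A (3.3%, beside 1.36%) and 4 lower (4.4%, beside 2.06%). SCN9A (0.91 ± 0.023, adjusted p = 2.92e-20) and KCNJ9 (0.85 ± 0.074, adjusted p = 4.33e-10) were higher in shARID1A. Most of the SCN9A difference came from shARID1A.2 and shARID1A/B.2.3, which changed by 0.72 and -1.03 against Control. In shARID1A.4 and shARID1A/B.4.2 SCN9A stayed near Control, at 0.068 and -0.005. KCNK3 (-1.20 ± 0.038, adjusted p = 1.69e-18), CACNA2D2 (-1.16 ± 0.044, adjusted p = 5.77e-17) and KCNN3 (-1.06 ± 0.11, adjusted p = 5.58e-09) were lower. KCNK3 lay at 535 to 653 in the libraries labelled shARID1A and 1185 to 1503 in those labelled shARID1A/B, with no overlap. Between shARID1A/B and shARID1B, 9 genes were 2-fold higher in shARID1A/B (9.89%, beside 4.09%) and 5 lower (5.49%, beside 3.69%), and edgeR with TMM scaling gave 9 and 9 and DESeq2 10 and 9. KCNH6 (2.33 ± 0.11, adjusted p = 1.87e-15) and KCNJ12 (1.32 ± 0.11, adjusted p = 1.41e-10) were higher. KCNAB3 (-1.04 ± 0.064, adjusted p = 2.31e-13), CACNA1G (-0.90 ± 0.11, adjusted p = 1.02e-07) and KCNG1 (-0.89 ± 0.033, adjusted p = 9.72e-18) were lower. KCNG1 measured 2569.8 to 2669.6 in shARID1A/B.2.3, which overlapped with shARID1B.3, and 823 to 945 in shARID1A/B.4.2. CACNA1G measured 40.3 to 58.4 in the libraries labelled shARID1A/B, which overlapped with shARID1B.3.

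The 2 conditions of each label were also compared with each other, with no averaging. Between shARID1A.2 and shARID1A.4, 17 genes were 2-fold higher in the first (18.7%, beside 13.9%) and 17 lower (18.7%, beside 9.54%), with 21 and 13 when scaled to library totals. Between shARID1B.2 and shARID1B.3 the counts were 16 (17.6%, beside 8.23%) and 4 (4.4%, beside 5.25%). Between shARID1A/B.2.3 and shARID1A/B.4.2 they were 14 (15.4%, beside 9.49%) and 14 (15.4%, beside 12.4%), with 11 and 18 when scaled to library totals. SCN3B differed by 4.20 ± 0.037 (SE, adjusted p = 5.45e-30) between shARID1A.2 and shARID1A.4 and by -3.96 ± 0.037 (SE, adjusted p = 1.94e-29) between shARID1A/B.2.3 and shARID1A/B.4.2, and by 0.58 ± 0.037 between shARID1B.2 and shARID1B.3. SCN1A differed by 2.52 ± 0.22 and -2.92 ± 0.22 and SCN2B by 1.87 ± 0.11 and -1.92 ± 0.11 in the same 2 comparisons. KCNK9 went the other way, with -2.50 ± 0.12 between the conditions labelled shARID1A and 4.20 ± 0.12 between those labelled shARID1A/B. CACNA2D1 was below Control in both conditions labelled shARID1A and both labelled shARID1A/B. By label a condition is 1 hairpin or 1 pair, so the hairpin and the level of its target cannot be told apart here.

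Beyond the members, 36 genes that work with these channels were examined, among them HCN pacemaker channels, ankyrins, RGK proteins that inhibit calcium channels, and REST. Of these, 28 were tested, and the 2-fold counts were 5 higher and 3 lower in shARID1A.2 (17.9% and 10.7%, beside 13.8% and 10.7% of all genes tested), 4 higher and 5 lower in shARID1A.4 (14.3% and 17.9%, beside 9.31% and 12% of all genes tested), 1 higher and 3 lower in shARID1B.2 (3.57% and 10.7%, beside 6.61% and 5.03% of all genes tested), 3 higher and 1 lower in shARID1B.3 (10.7% and 3.57%, beside 5.18% and 6.53% of all genes tested), 3 higher and 0 lower in shARID1A/B.2.3 (10.7% and 0%, beside 6.98% and 9.01% of all genes tested) and 4 higher and 6 lower in shARID1A/B.4.2 (14.3% and 21.4%, beside 9.98% and 8.07% of all genes tested). HCN2 rose in all 6 conditions by 1.48 to 2.11 (adjusted p of at most 1.12e-19). GEM, an RGK protein that binds calcium channel beta subunits, fell in all 6, with changes of -3.44 in shARID1A.2 to -0.67 in shARID1B.3 (adjusted p of at most 7.62e-08). REST changed by -0.89, -1.63, -0.24, -0.57, -0.54 and -0.92, in the same order of conditions, with an adjusted p of at most 0.000543.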

How the data were processed

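SK-N-BE(2) RNA was made into libraries with a stranded poly(A) kit and sequenced on a NovaSeq instrument. The submitters' processing notes name STAR 2.5.3a, RSEM 1.3.0, DESeq2 1.26.0 and GRCh38. The annotation version and strand setting are not given in the sources used here. The deposited values are a signal, namely whole reads over a library size factor (0.841 to 1.29) set by the authors. Dividing by the smallest step gave whole reads within 0.1 read for 100% of values, 27954334 to 41077638 per library. Every column of values could be matched to a library, and tables of the authors' own comparisons (fold changes and p-values) were not used. Groups were taken from the labels.

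As the values are not raw counts, limma 3.58.1 with a trend was run in R 4.3.3 on log2 of the value plus 1, with 1 coefficient per condition over all 21 libraries and 18615 genes with a mean of 5 or more, and p-values were adjusted by Benjamini-Hochberg. On simulated reads for shARID1A.2 against Control over 18615 genes, limma found 200 of 200 changed genes with 19 false calls, edgeR 199 and DESeq2 198. The changed genes were drawn from those with a mean of 50 or more and changed exactly 2-fold, with the same spread setting for every gene. Recovery of lower genes or smaller changes was therefore not examined. Alternatives were edgeR 4.0.16 and DESeq2 1.42.0 on the recovered reads, pseudocounts of 0.5 and 5, no filter or edgeR's filter, 2 other scalings, only the libraries compared, the replicate block and each library left out. Members were named where their mean was 50 or more and they were among the 5 largest rises or falls in a condition, 2-fold the same way in all 6, among the 3 largest differences of each sign between labels, the highest per kilobase of their group, or 2-fold up in one label's conditions and down in another's. Some genes that meet these rules are not reported here. Others are named as neighbours, as the rest of a family or near a threshold. The members and lists were chosen with earlier results of these data known. Replicate libraries differed by more than sampling noise in all 21 pairs (chi-square per degree of freedom 1.54 to 3.99). Coordinates and exon lengths are from GENCODE release 29, where all 137 members were found; promoters are from RefSeq. Python 3.11.15, numpy 2.4.6, pandas 2.3.3 and matplotlib 3.10.9 were used.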

Additional observations from a re-analysis of the deposited data

Results flagged for a closer look

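Several channel genes changed 2-fold in opposite directions against Control in the 2 conditions of 1 label, and the direct difference between these conditions passed limma's test. Among those with a mean of 50 or more, 3 did so, all in shARID1A/B. KCNK9 was 4.20 higher on the log2 scale in shARID1A/B.2.3 than in shARID1A/B.4.2 (adjusted p = 5.91e-20), at 586 to 659.7 against 29.4 to 36.5, with Control at 112 to 153. SCN1A differed by -2.92 (adjusted p = 1.31e-11), at 10.1 to 22.9 against 105 to 141, with Control at 25.7 to 37. SCN3B differed by -3.96 (adjusted p = 1.94e-29), at 886 to 985 against 14408 to 14660.1, with Control at 2065 to 2153. In each of these genes all 3 libraries of one condition were above Control and all 3 of the other below it. The libraries of both conditions were low in ARID1B, and ARID1A differed from Control by -0.16 ± 0.029 and -0.21 ± 0.029 (log2, SE). Among the channel genes with a mean under 50, KCNS3 differed by -3.83 between these conditions (adjusted p = 1.61e-08), at 0 to 2.08 against 25.5 to 31.9, and by 4.24 between shARID1A.2 and shARID1A.4 (adjusted p = 2.6e-09), at 58.7 to 61.5 against 1.19 to 2.99, with Control at 6.16 to 17.9. KCNK2 differed by 2.87 between shARID1A.2 and shARID1A.4 (adjusted p = 2.13e-07), at 15.8 to 24.5 against 1.19 to 2.91, with Control at 3.08 to 9.40. KCNJ10 differed by 2.71 between shARID1B.2 and shARID1B.3 (adjusted p = 2e-06), at 24.5 to 42.8 against 2.99 to 5.70, with Control at 11.2 to 21.1. The lower values of KCNS3 and KCNK2 are near the limit of counting, where the log2 difference depends on the 1 added to each value. The cause was not tested.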

How the results depend on the processing

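The 30 main results (18 counts of channel genes and 12 values of ARID1A and ARID1B) were recomputed under 31 alternatives, and 925 of the 930 recomputed values stayed within 1.5 times of the reported count or on the same side of the threshold. Without a filter on low values, 26 channel genes were 2-fold higher in shARID1A.2, in place of 17, as this setting also tests members under a mean of 5. With a pseudocount of 5, the 2-fold differences between labels fell to 5 (from 9) for shARID1A against shARID1B, 4 (from 7) for shARID1A against shARID1A/B and 8 (from 14) for shARID1A/B against shARID1B, since a larger pseudocount shrinks the changes of low genes. Scaled to library totals, the change of ARID1A in shARID1A/B.4.2 was -0.027 and no longer passed the threshold. That scaling took the median of all genes to 0.199 in shARID1A/B.4.2, from 0.015, its largest shift, and under it 4 of 353 changes of members against Control lost both call and sign, those of KCNH2, KCNQ5, CACNB1 and SCN8A in shARID1A/B.4.2, which were -0.14, -0.11, -0.16 and -0.14 as reported. The 139 2-fold changes and differences of members that the naming rule gave kept their sign and their adjusted p under 0.05 in all 4309 values recomputed. Same-numbered replicates did not deviate together (63 correlations of -0.196 to 0.143, median 0.005), so no effect shared by number was seen. These correlations cannot show whether same-numbered libraries were made together. With the replicate block the 2-fold counts were 17 higher and 12 lower in shARID1A.2, 19 and 15 in shARID1A.4, 16 and 7 in shARID1B.2, 4 and 17 in shARID1B.3, 13 and 11 in shARID1A/B.2.3 and 13 and 13 in shARID1A/B.4.2, the same as without it. Genes near the mean of 5 are limited by counting, and 3 libraries per condition limit the precision of each value.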

Other observations

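Among the 32 tested channel genes with a mean under 50, some were chosen for description after their values were seen. KCNS1 (Kv9.1), a modifier subunit, was above Control in all 18 silenced libraries, with 7.05 to 12.3 in Control and 83.2 to 97.1 in shARID1A.4, and rose by 1.72 in shARID1A.2, 3.09 in shARID1A.4, 2.03 in shARID1B.2, 2.04 in shARID1B.3, 1.26 in shARID1A/B.2.3 and 1.0 in shARID1A/B.4.2 (adjusted p of at most 0.00607). KCNJ3 (Kir3.1), the partner of KCNJ9 in G protein-gated channels, had 1.17, 2.24 and 0 in Control and 2.59 to 12.5 in the silenced libraries, all close to the limit of counting. KCNA2 (Kv1.2) measured 56.4 to 71.6 in Control and 9.51 to 39 in the 5 conditions other than shARID1B.2. It fell by 1.01 on the log2 scale in shARID1B.3 and changed by -2.36 in shARID1A.4. KCNK6 (TWIK-2) was likewise 2-fold lower in those 5 conditions, at 3.57 to 18.2 against 41.1 to 49.3 in Control.

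KCNS3 (Kv9.3) and KCNJ10 (Kir4.1), the main potassium channel of glia, also varied within labels. KCNS3 measured 61.5, 58.7 and 60.1 in shARID1A.2 and 2.91, 1.19 and 2.99 in shARID1A.4, 0, 2.08 and 1.95 in shARID1A/B.2.3 and 31.9, 25.5 and 29 in shARID1A/B.4.2, with 15.3, 17.9 and 6.16 in Control. KCNJ10 measured 16.6, 11.3 and 24.5 and 0.97, 0 and 1.0 in the conditions labelled shARID1A, 0, 1.04 and 0 and 26.4, 23.9 and 21.5 in those labelled shARID1A/B, and 21.1, 11.2 and 13.3 in Control. KCNRG and KCNMB3 did not pass the limma threshold in any of the 6 conditions. Exons of TRIM13 cover 66.8% of KCNRG and exons of PIK3CA 37.9% of KCNMB3.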
